A study of Sus scrofa with 92 samples.

Results

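The genes described here carry and build lipoproteins in the liver: the apolipoproteins APOA1, APOA4, APOB, APOC3, APOE, APOH and APOM, and MTTP, the microsomal triglyceride transfer protein. They were chosen by name, as the rows of the count table whose pig Ensembl identifier carries 1 of these symbols. Of the 8 genes, 7 had a row among the 25322 identifiers, and all 7 passed the filter on low counts in every comparison. For APOH no row carried the symbol, so it is not analysed here.

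Lipoproteins are particles that carry triglyceride and cholesterol through blood. The hepatocyte loads lipid onto APOB with the help of MTTP to form very low density lipoprotein (VLDL), while APOA1 is the scaffold of high density lipoprotein (HDL). The smaller apolipoproteins move between particles: APOE is a ligand for receptors that clear remnants, APOC3 slows the clearance of triglyceride, APOM carries sphingosine 1-phosphate on HDL, and APOA4 is secreted with triglyceride-rich particles.

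Liver was biopsied from 23 juvenile male Yorkshire-Landrace pigs, 18 fasted (FS) and 5 carbohydrate prefed (CPF), and each biopsy gave 1 RNA library. All animals were fasted overnight, splenectomized, given a percussive chest injury, a controlled hemorrhage and a liver crush, and then resuscitated in a limited and later a full phase. CPF animals differed by a bolus of Karo syrup given before anesthesia. Libraries come from Baseline (B) and from 2, 8 and 20 hours after resuscitation began (FR2, FR8 and FR20), and 3 FS and 2 CPF animals died. The Baseline biopsy was taken once the animal had stabilized from instrumentation. There was no injured group without resuscitation and no uninjured group. Hemorrhage, injury, surgery, anesthesia, resuscitation and time therefore cannot be told apart. A repeat biopsy is a piece of the whole liver, and fewer hepatocytes and less RNA per hepatocyte cannot be told apart in it. Animals are numbered here within their group, and the numbers only name them.

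The table holds 92 libraries. The 3 FS Baseline libraries almost without albumin (animals FS13, FS14 and FS16; 4 to 899 albumin counts) and the FR8 library of CPF1 with 4388 counts were left out, which leaves 88 libraries with 6877117 to 16613261 counts on genes (median 12071957). A further 2 libraries stood apart. In FR2 and FR8 of animal FS8 all 174 well-counted genes (median of at least 200 counts) that RefSeq (Sscrofa11.1) places on chromosome 9 were at 0 counts, with all 132 on X, all 13 of the mitochondrion and 52 and 49 of the 120 on chromosome 8, against 1 of 3299 on the other chromosomes. In the other 86 libraries together no gene of these chromosomes was at 0. APOA1, APOA4 and APOC3 lie side by side on chromosome 9 and MTTP lies on chromosome 8, and all 4 were at 0 in these 2 libraries, while APOB, APOE and APOM were counted there. Results for the 4 genes are therefore given with 88 libraries and with 86, and levels are those of the 86 libraries: 15, 17, 17 and 18 FS libraries and 5, 5, 4 and 5 CPF libraries at B, FR2, FR8 and FR20.

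**Figure D1:**
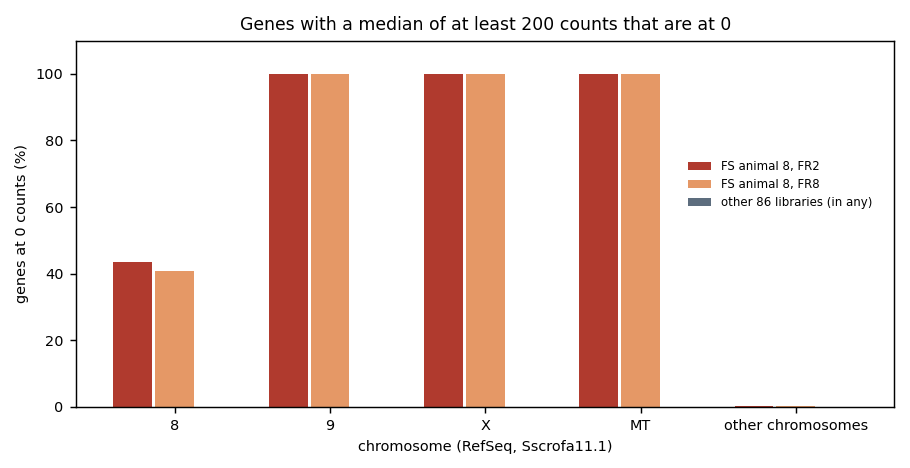
Percent of genes with a median of at least 200 counts that were at 0 counts, by chromosome group (x axis), in FR2 and FR8 of animal FS8 and in any of the other 86 libraries. Chromosome 9, X and the mitochondrion stand at 100% in both libraries of FS8, chromosome 8 at 43.3% and 40.8%, and the other bars at or near 0.

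Levels are in CPM, read counts brought to a common library size after scaling by the trimmed mean of M-values (TMM). They depend on transcript length, so they were compared across libraries and not between genes. The 7 genes together took 2.75 to 4.98% of a library's counts at Baseline in FS animals (median 3.69%, n = 15) and 1.57 to 4.15% at FR20 (median 2.45%, n = 18). In CPF animals the share was 2.85 to 4.32% at Baseline (median 4.10%, n = 5) and 1.74 to 2.91% at FR20 (median 2.66%, n = 5). The ranges overlapped in both groups.

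The first question was how the genes changed after resuscitation within each fed state. In FS animals the transcripts of APOE, APOC3, APOA1 and APOM were lower than at Baseline, those of APOA4 and MTTP were higher, and those of APOB did not pass the test. With the 88 libraries, APOA4, APOE and APOM passed at FR2vB (FR2 against Baseline), APOE and APOM at FR8vB, and APOA4, APOE and APOM at FR20vB, at an adjusted p under 0.05 (edgeR's quasi-likelihood test with a term for each animal, Benjamini-Hochberg over all genes). The 3 comparisons share the Baseline libraries. These are 3, 2 and 3 of 7 genes, where 41.4%, 39.3% and 33.8% of the 13667 genes tested passed. With the 86 libraries 5, 5 and 6 of 7 passed, against 42.9%, 40.4% and 36.5% of all 13650. The median log2 fold change of the 7 genes at FR20vB was −0.55 with 88 libraries and −0.53 with 86, and that of all genes was 0.04 with 88. Adding the threshold of a log2 fold change of at least 1 in size left APOA4 at FR2vB, no gene at FR8vB, and APOA4 and APOE at FR20vB with 88 libraries (1, 0 and 2 of 7 genes, against 11%, 11.8% and 9.94% of all genes).

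**Figure D2:**
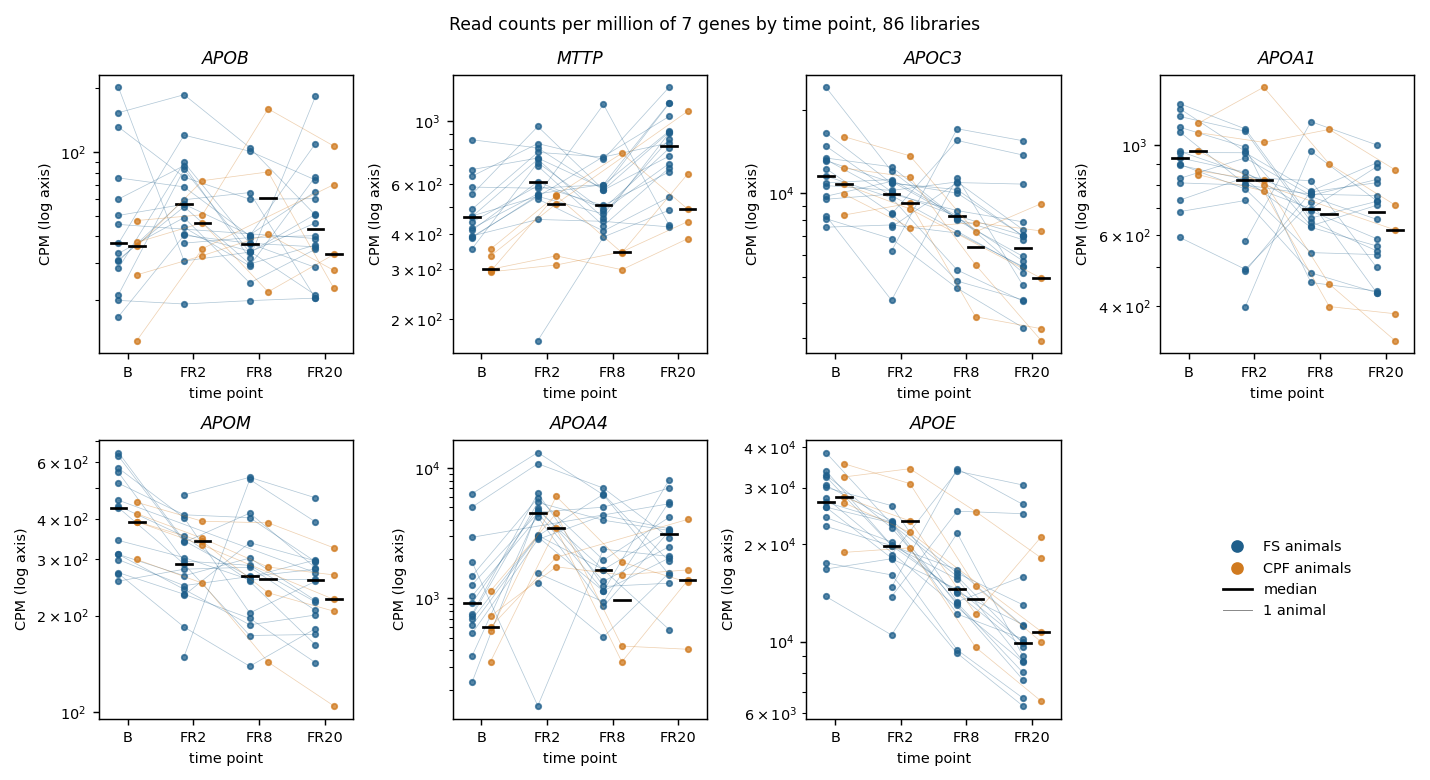
Levels of the 7 genes by time point (x axis) in CPM on a log axis, 1 point per library (86 libraries), FS and CPF animals side by side, with a bar at each median and thin lines joining the libraries of 1 animal. The median of APOE goes from 27029.6 CPM at B to 9918 at FR20 in FS animals, while APOA4 and MTTP have their lowest FS medians at B. The FS ranges of the time points overlap for each gene. Some CPF ranges do not, such as those of MTTP at B and FR20 and of APOA4 at B and FR2. The share of all genes with such CPF ranges was not counted.

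Assembly of VLDL rests on APOB, the structural protein of the particle, and MTTP, which loads it with lipid in the endoplasmic reticulum. APOB had 117 to 2439 counts in an FS library, and its level in FS animals was 16.7 to 203 CPM at Baseline (median 37.0), 19.2 to 187 at FR2 (median 56.7), 19.9 to 105 at FR8 (median 37.0) and 20.4 to 183 at FR20 (median 43.3). These ranges lie on top of each other. How much of the APOB transcript its row counts was not tested. The log2 fold change of APOB was 0.27 (SE 0.25, adjusted p = 0.400, edgeR) at FR2vB, −0.30 (SE 0.25, adjusted p = 0.341) at FR8vB and 0.01 (SE 0.25, 95% interval −0.47 to 0.49, adjusted p = 0.985) at FR20vB with 88 libraries. APOB fell from FR2 to FR8 by 0.57 on the log2 scale (SE 0.23, adjusted p = 0.0487, edgeR, 88 libraries), and it was lower in 14 of 18 animals, but with 86 libraries the change was −0.54 and its adjusted p 0.0691. The later steps (FR8vFR2 and FR20vFR8) were not refitted without single animals. Without animal FS2, which had the highest Baseline level, the FR2vB change was 0.57 with an adjusted p of 0.0384 (edgeR, 86 libraries).

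MTTP in FS animals measured 355 to 859.9 CPM at Baseline (median 461), 168 to 958 at FR2 (median 611), 390.4 to 1146 at FR8 (median 505) and 424 to 1318 at FR20 (median 819.6). The ranges overlap, and the FR20 median lies near the highest Baseline library. With 86 libraries MTTP rose by 0.42 on the log2 scale at FR2vB (SE 0.13, adjusted p = 0.00757, edgeR) and by 0.77 at FR20vB (SE 0.13, 95% interval 0.52 to 1.03, adjusted p = 4.86e-06), or 1.71-fold, and it was higher than the animal's own Baseline in 14 of 15 animals. At FR8vB the change was 0.28 (SE 0.13, adjusted p = 0.0800, edgeR), and without FS11 0.35 with an adjusted p of 0.0347. With the 88 libraries the change at FR20vB was 0.79 (SE 0.35, adjusted p = 0.0735), so the SE grew from 0.13 to 0.35 with the 2 libraries at 0 while the fold changed little. MTTP also rose from FR8 to FR20, by 0.49 (SE 0.13, adjusted p = 0.0126, edgeR, 86 libraries), in 15 of 17 animals, and by 0.68 with 88 libraries (SE 0.34, adjusted p = 0.226).

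The level of APOE, the remnant ligand, in FS animals was 13791 to 38516 CPM at Baseline (median 27029.6), 10478 to 26361 at FR2 (median 19827), 9193 to 34319 at FR8 (median 14519.5) and 6319 to 30544 at FR20 (median 9918). The median was lower at each step, and the ranges of B and FR20 overlap. The highest FR8 and FR20 libraries of APOE were those of FS13, FS14 and FS16, at 25339 to 34319 CPM at FR8 and 24887 to 30544 at FR20, and these are the 3 animals whose Baseline library was left out. FS13 or FS14 also held the highest FR8 and FR20 level of APOA1, APOC3 and APOM, so the comparisons with an animal's own Baseline, which need a Baseline, do not hold these 3 animals. APOE fell by 0.49 on the log2 scale at FR2vB (SE 0.15, adjusted p = 0.00589, edgeR, 88 libraries), by 0.82 at FR8vB (SE 0.15, adjusted p = 2.05e-05) and by 1.33 at FR20vB (SE 0.15, 95% interval −1.63 to −1.02, adjusted p = 2.55e-09), a ratio of 0.399 to Baseline. It was below the animal's own Baseline at FR20 in 15 of 15 animals, with changes of −2.03 to −0.61 on the log2 scale. The fall from FR8 to FR20 also passed (log2 −0.50, SE 0.14, adjusted p = 0.0208, edgeR), with a lower level in 17 of 18 animals.

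APOC3, the inhibitor of triglyceride clearance, measured 7547 to 24237 CPM at Baseline in FS animals (median 11561), 4103 to 12481 at FR2 (median 9941), 4540 to 17144 at FR8 (median 8287) and 3270 to 15512.5 at FR20 (median 6357). Its medians were also lower at each step, with overlapping ranges. With 86 libraries it fell by 0.47 on the log2 scale at FR2vB (SE 0.15, adjusted p = 0.00816, edgeR), by 0.55 at FR8vB (SE 0.15, adjusted p = 0.00264) and by 0.97 at FR20vB (SE 0.15, 95% interval −1.26 to −0.68, adjusted p = 7.03e-07), and it was lower at FR20 in 15 of 15 animals. With 88 libraries the FR20vB change was −1.01 (SE 0.42, adjusted p = 0.0540), past the threshold only without FS8 or FS14, with an adjusted p up to 0.0989 over the 18 fits.

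**Figure D3:**
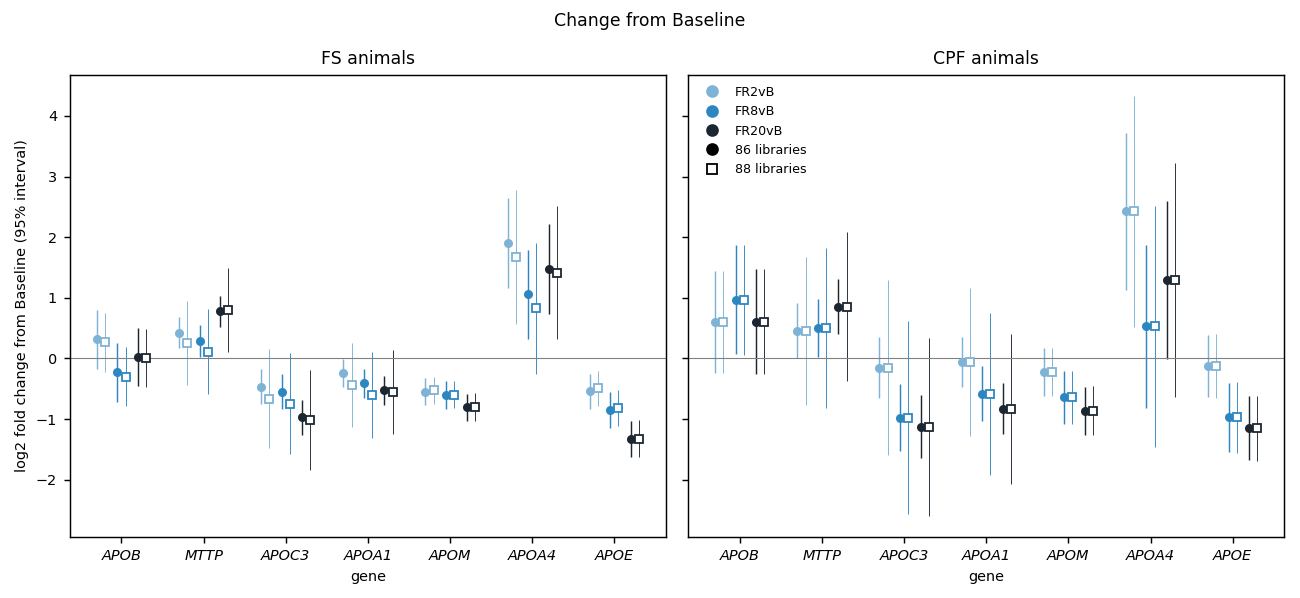
Log2 fold change from Baseline (y axis, with 95% intervals) of each gene (x axis) in FS animals (left) and CPF animals (right) at FR2vB, FR8vB and FR20vB, from the fits of 86 libraries (circles) and 88 libraries (squares). APOE reaches −1.33 at FR20vB in FS animals and −1.15 in CPF animals, and the intervals of APOA1, APOA4, APOC3 and MTTP are wider with 88 libraries.

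APOA1, the HDL scaffold, measured 593 to 1268 CPM at Baseline in FS animals (median 932), 399 to 1098 at FR2 (median 824), 459 to 1144 at FR8 (median 697) and 433 to 1003 at FR20 (median 684). These ranges overlap widely. With 86 libraries the FR2vB change was −0.24 (SE 0.12, adjusted p = 0.0935, edgeR), and APOA1 fell by 0.41 at FR8vB (SE 0.12, adjusted p = 0.00582) and by 0.53 at FR20vB (SE 0.12, adjusted p = 0.000390), with a lower level at FR20 in 15 of 15 animals. The call depends on scaling: on library totals alone, which moved the median of all genes up by 0.41 at FR20vB in FS animals, the change of APOA1 was −0.11 (adjusted p = 0.264, edgeR), so its fall holds relative to the median of all genes. At FR8vB on library totals it was −0.15 (adjusted p = 0.154). With 88 libraries the FR20vB change of APOA1 was −0.55 (SE 0.35, adjusted p = 0.225, edgeR). At FR8vB with 88 libraries APOA1 did not pass. There it passed in 1 of the 18 fits without an animal, the one without FS8 (log2 −0.69 to −0.41, adjusted p up to 0.234, edgeR).

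APOM, which carries sphingosine 1-phosphate, measured 256 to 644 CPM at Baseline in FS animals (median 434), 149 to 475 at FR2 (median 289.6), 139 to 539 at FR8 (median 265) and 143 to 466 at FR20 (median 258). The largest step of its median was from B to FR2. APOM fell by 0.53 on the log2 scale at FR2vB (SE 0.11, adjusted p = 0.000162, edgeR, 88 libraries), by 0.60 at FR8vB (SE 0.11, adjusted p = 3.48e-05) and by 0.80 at FR20vB (SE 0.11, 95% interval −1.03 to −0.58, adjusted p = 2.00e-07), and it was lower at FR20 in 15 of 15 animals. The changes from FR2 to FR8 and from FR8 to FR20 were −0.07 and −0.20 (adjusted p = 0.659 and 0.260, edgeR).

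APOA4, secreted with triglyceride-rich particles, rose, and it varied more between animals than any other of the 7 genes in every FS group. It measured 229 to 6349 CPM at Baseline (median 927), 150 to 13107 at FR2 (median 4509), 508 to 6994 at FR8 (median 1664) and 578 to 8088 at FR20 (median 3099.97). The highest Baseline library was 27.7 times the lowest and the highest FR2 library 87.1 times the lowest, against 2.14 and 2.75 times for APOA1. APOA4 rose by 1.67 on the log2 scale at FR2vB with 88 libraries (SE 0.56, adjusted p = 0.0132, edgeR) and by 1.90 with 86 (SE 0.38, 95% interval 1.15 to 2.65, adjusted p = 6.06e-05), or 3.73-fold. It was higher than Baseline in 13 of 14 animals at FR2. The exception was FS7, where it decreased by 3.65 on the log2 scale and had its lowest FR2 level.

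At FR8vB the change of APOA4 in FS animals was 0.83 with 88 libraries (SE 0.55, adjusted p = 0.232, edgeR) and 1.06 with 86 (SE 0.37, adjusted p = 0.0192), and with 86 it lost its call without FS6 (0.86, adjusted p = 0.0610) or FS18 (0.91, adjusted p = 0.0554). At FR20vB it was 1.41 with 88 libraries (SE 0.56, adjusted p = 0.0428) and 1.48 with 86 (SE 0.38, adjusted p = 0.00167). With 88 libraries the FR20vB call was lost when any 1 of 14 of the 18 animals was left out (all but FS3, FS7, FS8 and FS11), with log2 fold changes between 1.26 and 1.58 and adjusted p-values up to 0.0877 over the 18 fits, while with 86 libraries it was kept without each of 17 animals (1.33 to 1.67). The step from FR2 to FR8 was −0.84 (SE 0.35, adjusted p = 0.0631, edgeR, 86 libraries), lower in 13 of 17 animals. Of the 7 genes 1 passed at FR8vFR2 in FS animals with 88 libraries (APOB) and 0 with 86, against 28.4% and 27.7% of all genes. At FR20vFR8 these counts were 1 (APOE) and 2 (APOE and MTTP), against 6.39% and 5.47%.

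In CPF animals APOE, APOM, APOC3 and APOA1 were lower and MTTP was higher at FR20 than at Baseline, APOA4 was higher at FR2, and APOB did not pass the test. With 88 libraries 0, 2 and 2 of 7 genes passed at FR2vB, FR8vB and FR20vB, APOE and APOM at the latter 2 time points, against 3.41%, 13.3% and 0.893% of all genes. With 86 libraries 1 (APOA4), 3 (APOC3, APOE and APOM) and 5 (APOA1, APOC3, APOE, APOM and MTTP) passed, against 4.21%, 15.7% and 1.39%. By the added threshold of 1 on the log2 scale 0, 0 and 1 passed with 88 libraries, APOE at FR20vB, against 2.41%, 8.83% and 0.702%. These calls depend on scaling too. Library totals alone moved the median of all genes up by 0.28 at FR8vB and 0.37 at FR20vB in CPF animals. There 1 of the 7 genes passed at each with 88 libraries, against 2 with TMM. At FR2vB, where edgeR called 0 of the 7 with 88 libraries, DESeq2 and limma each called 1, and 2735 of the 13667 genes were at an unadjusted p under 0.05.

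APOE in the CPF animals, from CPF1 to CPF5, measured 26886, 32358, 18889.8, 27969 and 35532 CPM at Baseline, 21775, 34310.1, 19508, 23636 and 30845 at FR2, and 10739, 18155.5, 6534, 21100.3 and 9968 at FR20. At FR8 CPF2 to CPF5 measured 25282, 9599, 12192 and 14824. Each animal was below its own Baseline at FR8 and at FR20, and the B and FR20 ranges overlap where CPF4 at FR20 lay above CPF3 at Baseline. APOE fell by 0.97 at FR8vB (SE 0.30, adjusted p = 0.0229, edgeR, 88 libraries) and by 1.15 at FR20vB (SE 0.27, 95% interval −1.69 to −0.61, adjusted p = 0.0274). The FR20vB call was lost without CPF1, CPF2, CPF3 or CPF5 and the FR8vB call without CPF3, CPF4 or CPF5, with log2 fold changes over the 5 fits of −1.38 to −1.01 at FR20vB (adjusted p up to 0.198) and −1.17 to −0.89 at FR8vB (adjusted p up to 0.111). The direction was the same in all of these fits.

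APOC3 measured 10779, 9945, 8353, 16042 and 12345 CPM at Baseline in CPF1 to CPF5, 8787, 7526, 9209, 13676 and 11452 at FR2, and 4930.1, 7313, 3238, 9183 and 2933 at FR20, with 7844, 3577, 7259 and 5512 in CPF2 to CPF5 at FR8. All of the FR8 libraries and 4 of the 5 FR20 libraries lay below the lowest Baseline library. The share of all genes of which this holds was not counted. With 86 libraries APOC3 fell by 0.98 at FR8vB (SE 0.28, adjusted p = 0.0154, edgeR) and by 1.12 at FR20vB (SE 0.26, adjusted p = 0.0225). The FR8vB call was lost without CPF3, CPF4 or CPF5 (log2 −1.18 to −0.91 over the 5 fits, adjusted p up to 0.0750) and the FR20vB call without CPF1, CPF3 or CPF5 (log2 −1.30 to −0.92, adjusted p up to 0.187). With 88 libraries it was −0.98 and −1.12 with adjusted p-values of 0.451 and 0.468.

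APOM in CPF1 to CPF5 measured 392, 451, 299, 416 and 393 CPM at Baseline, 332, 393, 252, 348 and 340.5 at FR2 and 225, 325, 105, 268 and 206 at FR20, with 389, 143, 283 and 236 in CPF2 to CPF5 at FR8. Every later library was below the same animal's Baseline. APOM fell by 0.64 at FR8vB (SE 0.22, adjusted p = 0.0434, edgeR, 88 libraries) and by 0.86 at FR20vB (SE 0.20, adjusted p = 0.0273). The FR8vB call was lost without CPF1, CPF3, CPF4 or CPF5 (log2 −0.77 to −0.53 over the 5 fits, adjusted p up to 0.183), and the FR20vB call without CPF1, CPF2, CPF3 or CPF5 (log2 −0.96 to −0.73, adjusted p up to 0.207).

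APOA1 in the CPF animals measured 969.9, 1076, 865, 1133 and 847 CPM at Baseline and 618, 870.4, 329.5, 712 and 384 at FR20. Here 4 of the 5 FR20 libraries of APOA1 lay below the lowest Baseline library, which was not counted over all genes. It fell by 0.83 at FR20vB with 86 libraries (SE 0.21, adjusted p = 0.0340, edgeR), and without CPF1, CPF2, CPF3 or CPF5, or on library totals alone (log2 −0.45, adjusted p = 0.0563), it lost the call, with −0.96 to −0.69 over the 5 fits and adjusted p-values up to 0.231. At FR8vB it was −0.58 (SE 0.23, adjusted p = 0.0731, edgeR, 86 libraries), past the threshold only without CPF2 (adjusted p = 0.0472). MTTP measured 335, 294, 300.2, 295 and 354 CPM at Baseline and 1083, 442, 385, 491 and 650.3 at FR20. These groups do not overlap, and how many of all genes do the same was not counted. MTTP rose by 0.86 at FR20vB with 86 libraries (SE 0.23, 1.81-fold, adjusted p = 0.0454, edgeR), a call lost without CPF1, CPF2, CPF3 or CPF5 (log2 0.63 to 0.99 over the 5 fits, adjusted p up to 0.263).

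APOA4 in the CPF animals measured 603, 564, 733, 1142 and 329 CPM at Baseline and 2066, 6051, 1747, 4478 and 3435 at FR2. Every FR2 library lay above every Baseline library, and the share of all genes with such a separation was not counted. At FR8 APOA4 measured 1899, 1515, 432 and 327 CPM in CPF2 to CPF5, and at FR20 4025, 1329.7, 1654, 408 and 1373 in CPF1 to CPF5. APOA4 rose by 2.43 at FR2vB with 86 libraries (SE 0.66, 95% interval 1.14 to 3.71, adjusted p = 0.0249, edgeR), or 5.37-fold, and the call was lost without CPF1, CPF2, CPF4 or CPF5 (log2 2.16 to 2.63 over the 5 fits, adjusted p up to 0.143). With 88 libraries the same fold had an adjusted p of 0.147. From FR2 to FR8 it was lower in each of the 4 animals (log2 −1.90, SE 0.71, adjusted p = 0.0720, edgeR, 86 libraries).

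APOB in CPF1 to CPF5 measured 12.9, 35.8, 26.3, 47.5 and 37.5 CPM at Baseline and 70.2, 22.8, 27.6, 107 and 32.9 at FR20, with 80.6, 40.9, 160.2 and 21.9 in CPF2 to CPF5 at FR8. CPF4 was the highest at FR8 and FR20, and the ranges overlap. Its change was 0.97 at FR8vB (SE 0.46, adjusted p = 0.152, edgeR, 88 libraries) and 0.61 at FR20vB (SE 0.44, adjusted p = 0.518). Between FR2 and FR8 in CPF animals 0 of 7 genes passed with 88 libraries and 1 (APOE, log2 −0.85, SE 0.29, adjusted p = 0.0497, edgeR) with 86, against 7.21% and 9.51% of all genes. Between FR8 and FR20 0 passed, against 0.022% and 0.0293%.

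The second question was whether prefeeding altered these changes, tested as the CPF change minus the FS change. None of the 7 genes passed at FR2vB, FR8vB or FR20vB by edgeR, and neither did any gene of the table (0.0% of 13667 each time, where the unadjusted p was under 0.05 for 397, 468 and 521 genes). DESeq2 and limma also called 0 of the 7 genes. For APOE the CPF minus FS difference was 0.37 (95% interval −0.24 to 0.97), −0.15 (−0.80 to 0.50) and 0.17 (−0.44 to 0.79) on the log2 scale with 88 libraries, so differences inside these intervals could not be told from 0. For APOC3 with 86 libraries it was 0.31 (−0.27 to 0.89), −0.43 (−1.05 to 0.19) and −0.15 (−0.74 to 0.43), and for MTTP 0.03 (−0.49 to 0.55), 0.22 (−0.33 to 0.77) and 0.08 (−0.44 to 0.60). The intervals of APOA4 were the widest, −0.90 to 1.95 at FR2vB and −1.66 to 1.30 at FR20vB with 86 libraries. The difference for APOB at FR8vB was 1.27 (SE 0.52, 95% interval 0.25 to 2.29), with an unadjusted p of 0.0179 and an adjusted p of 0.999 (edgeR). The spread between libraries was estimated over both groups.

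The levels of CPF and FS animals were then compared at each time point. At Baseline MTTP was the only one of the lipoprotein genes whose groups did not overlap: the 5 CPF libraries lay at 294 to 354 CPM, below all 15 FS libraries at 355 to 859.9. Groups without overlap were found for 7 of 11688 genes (0.0599%) at Baseline, and MTTP was 1 of the 3 of these that were lower in CPF animals. The MTTP difference was −0.66 on the log2 scale (SE 0.18, 95% interval −1.02 to −0.31), with an unadjusted p of 0.00128 and an adjusted p of 0.211 by edgeR, −0.67 with an adjusted p of 0.0344 by DESeq2, and −0.57 with an adjusted p of 0.123 by limma. At Baseline edgeR called 0 of the 7 genes, against 0.0342% of all. APOA4 and APOB also had lower values in CPF animals at Baseline, by −1.28 (SE 0.62, adjusted p = 0.650) and −0.97 (SE 0.53, adjusted p = 0.697), and the differences of APOE, APOC3, APOA1 and APOM lay between −0.10 and 0.09 on the log2 scale, with 95% intervals inside −0.54 to 0.51.

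At FR2, FR8 and FR20 edgeR, DESeq2 and limma called 0 of the 7 genes and edgeR 0.0% of all genes, with 664, 618 and 400 genes at an unadjusted p under 0.05. None of the 7 had groups without overlap, against 0.0169%, 0.0503% and 0.0% of all genes. The largest differences were those of APOA4, −1.42 at FR8 (SE 0.65, adjusted p = 0.842, edgeR, 86 libraries) and −0.93 at FR20 (SE 0.48, adjusted p = 1.00). MTTP stayed lower in CPF animals by value, at −0.50, −0.37 and −0.42 (adjusted p = 0.701, 0.857 and 1.00, edgeR, 86 libraries).

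The 5 animals that died were compared with the 18 that lived, with a term for the fed state. None of the 7 genes passed at B, FR2, FR8 or FR20 by edgeR, DESeq2 or limma, nor did any gene by edgeR (0.0% each time, where the unadjusted p was under 0.05 for 998, 656, 265 and 642). The values farthest from 0 were those of APOA4, −1.11 at Baseline (SE 0.64, adjusted p = 0.658) and −0.85 at FR20 (SE 0.48, adjusted p = 0.907) with 86 libraries. The value of MTTP was −0.46 at FR2 (SE 0.23, adjusted p = 0.799). Their 95% intervals were −2.37 to 0.15, −1.79 to 0.10 and −0.90 to −0.01.

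Across the 86 libraries, but not by Pearson's r across all 88, APOE, APOC3, APOM and APOA1 varied together. Pearson's r of log2 CPM was 0.86 for APOE with APOC3, 0.81 for APOE with APOM, 0.81 for APOC3 with APOM and 0.78 for APOA1 with APOC3. APOA4 stood apart from these, with r = 0.05 with APOA1 and 0.04 with APOC3, although APOA1, APOC3 and APOA4 lie next to each other. MTTP had r = 0.40 with APOA4 and −0.45 with APOE, and APOB had no r above 0.31 in size. These points share animals, time points and scaling, so the values describe the libraries and carry no test. With all 88 libraries, 2 of which hold APOA1, APOA4, APOC3 and MTTP at 0, r was 0.99 for APOA1 with APOC3 and 0.82 for APOA1 with APOA4, while it was 0.13 for APOE with APOC3, 0.09 for APOC3 with APOM, 0.09 for APOA1 with APOE and 0.05 for APOA1 with APOM. The pattern of the 86 libraries was thus not seen in Pearson's r over 88, apart from APOE with APOM (0.81). Spearman's rho over 88 libraries was 0.80 for APOE with APOC3, 0.72 for APOC3 with APOM, 0.69 for APOA1 with APOE and 0.05 for APOA1 with APOA4.

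**Figure D4:**
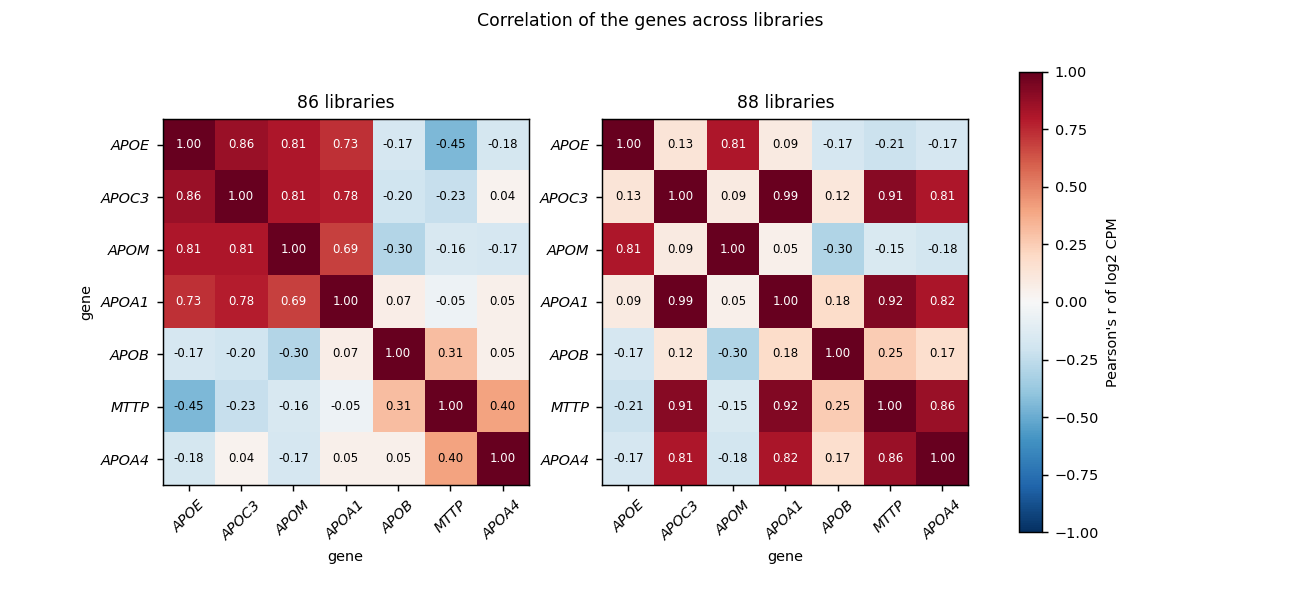
Pearson's r of log2 CPM for each pair of the 7 genes over 86 libraries (left) and 88 libraries (right), with blue for negative and red for positive values. Without the 2 libraries of FS8 the APOA4 cells with APOA1 and APOC3 go from 0.82 and 0.81 to 0.05 and 0.04, while the values of APOE and APOM with APOA1 and APOC3 go from between 0.05 and 0.13 to between 0.69 and 0.86.

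The genes most like each member over the 88 libraries were, for APOE, LTC4S (leukotriene C4 synthase; r = 0.93), PROC (protein C; 0.93) and AMBP (alpha-1-microglobulin; 0.93), for APOM, SNRNP25, MGMT and C8G (0.85, 0.85 and 0.84), and for APOB, ERC1, UBR2 and NCOA2 (0.74, 0.74 and 0.73). For the genes at 0 in FS8, the most like over 88 libraries were others at 0 there (HPX, SERPINC1 and PGRMC1 with APOA1 at r = 0.99; TSPAN13, OAF and SUCO with APOA4 at 0.89 to 0.90; HPX, COX1 and COX3 with APOC3 at 0.99; USP9X, AIFM1 and SEC31A with MTTP at 0.96 to 0.97). Over 86 libraries they were PGLYRP2 (0.85), SERPINC1 (antithrombin; 0.79) and F2 (prothrombin; 0.79) for APOA1, F10 (coagulation factor X; 0.88), RBP4 (retinol binding protein; 0.86) and HSD17B10 (0.86) for APOC3, BFAR (0.722), ABHD5 (0.715) and PMM1 (0.715) for APOA4, and LPGAT1 (0.77), PC (pyruvate carboxylase; 0.77) and CIDEB (a lipid droplet protein of VLDL maturation; 0.72) for MTTP.

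The other genes of lipoprotein metabolism were taken as lists, chosen with earlier results of these data known, and their counts are from the 86 libraries. The median log2 fold change of all genes at FR20vB in FS animals was 0.04. Of 6 other apolipoproteins tested, 1 rose and 2 fell at FR20vB in FS animals (median log2 fold change −0.02), against 36.5% of all genes called. APOF, an inhibitor of lipid transfer whose symbol 2 rows carry (the row with more counts was used), fell by 2.44 (SE 0.28, adjusted p = 2.50e-09, edgeR), and APOO, a mitochondrial protein despite its name, rose by 0.75 (SE 0.22, adjusted p = 0.00500). APOA2, the other main HDL protein, fell by 0.99 at FR2vB (SE 0.19, adjusted p = 2.28e-05). In CPF animals APOF fell by 2.57 at FR20vB (SE 0.52, adjusted p = 0.0141).

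Of 12 genes of VLDL assembly and secretion, 3 rose and 3 fell at FR2vB in FS animals, 6 rose and 3 fell at FR8vB, and 5 rose and 4 fell at FR20vB (4 and 3 with 88 libraries), with a median of 0.42, where 42.9%, 40.4% and 36.5% of all genes passed. LPCAT3, which supplies polyunsaturated phospholipid to the particle, rose by 1.43 at FR2vB (SE 0.23, adjusted p = 1.39e-06, edgeR) and by 1.45 at FR8vB (SE 0.22, adjusted p = 2.17e-06). SEC23A, a coat protein of vesicles that leave the endoplasmic reticulum, rose by 0.84 at FR20vB (SE 0.16, adjusted p = 2.49e-05), and SAR1B, the GTPase of the same coat, fell by 1.05 (SE 0.15, adjusted p = 3.02e-07). DGAT1, which makes triglyceride, fell by 0.46 at FR2vB (SE 0.11, adjusted p = 0.000569). In CPF animals 6 rose and 2 fell at FR8vB (5 and 2 with 88 libraries), against 15.7% of all genes, with SEC23A up by 1.15 (SE 0.30, adjusted p = 0.00747) and DGAT1 down by 1.17 (SE 0.22, adjusted p = 0.00107), and SEC24D, another coat protein, rose by 1.59 at FR2vB (SE 0.47, adjusted p = 0.0385). With 88 libraries SEC24D had an adjusted p of 0.147 there (edgeR). At FR2vB in CPF animals 0 of the 12 genes passed with 88 libraries and 2 with 86, beside 3.41% and 4.21% of all genes.

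Of 7 genes of HDL formation and remodelling, 0 rose and 4 fell at both FR2vB and FR8vB in FS animals, and 1 rose and 4 fell at FR20vB (1 and 3 with 88 libraries), with a median of −0.73, beside the same 42.9%, 40.4% and 36.5% of all genes. LIPC, hepatic lipase, fell by 1.12 at FR8vB (SE 0.19, adjusted p = 9.60e-06, edgeR) and by 1.05 at FR20vB (SE 0.18, adjusted p = 9.00e-06), and PON3, an HDL lactonase, fell by 0.84 at FR2vB (SE 0.27, adjusted p = 0.00825). ABCA1, which loads lipid onto APOA1, rose by 0.84 at FR20vB (SE 0.25, adjusted p = 0.00739). In CPF animals LIPC fell by 1.29 at FR8vB (SE 0.36, adjusted p = 0.0126) and by 1.21 at FR20vB (SE 0.33, adjusted p = 0.0464). With 88 libraries the FR20vB call was lost (adjusted p = 0.0517, edgeR). At FR8vB in CPF animals 1 gene of the list fell with 88 libraries and 3 with 86, beside 13.3% and 15.7% of all genes called.

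Of 7 genes of lipoprotein uptake, 2 rose and 2 fell at FR2vB and 1 rose and 3 fell at FR8vB and at FR20vB in FS animals (median −0.06 at FR20vB), where 42.9%, 40.4% and 36.5% of all genes passed. LSR, a lipoprotein receptor, rose by 0.63 at FR2vB (SE 0.14, adjusted p = 0.000266, edgeR), by 0.56 at FR8vB (SE 0.14, adjusted p = 0.000992) and by 0.44 at FR20vB (SE 0.14, adjusted p = 0.00931). LRP5, of the family of lipoprotein receptor-related proteins, fell by 0.82 at FR2vB (SE 0.17, adjusted p = 9.75e-05) and by 0.78 at FR8vB (SE 0.18, adjusted p = 0.000343), and in CPF animals by 1.03 at FR8vB (SE 0.33, adjusted p = 0.0279). LRPAP1, a receptor chaperone, fell by 0.53 at FR20vB in FS animals (SE 0.09, adjusted p = 9.03e-06). Of 3 lipases and lipase inhibitors or factors 0 rose and 2 fell at each time point in FS animals (median −0.37 at FR20vB), against the same shares of all genes. LMF1, a maturation factor of lipases, fell by 0.67 at FR2vB (SE 0.10, adjusted p = 2.80e-07), and ANGPTL4, a lipase inhibitor, fell by 1.41 at FR8vB (SE 0.34, adjusted p = 0.000676) and by 1.60 at FR20vB (SE 0.33, adjusted p = 9.94e-05). In CPF animals LMF1 fell by 0.64 at FR8vB (SE 0.19, adjusted p = 0.0151), and ANGPTL4 at FR20vB had a value of −1.78 (SE 0.60, adjusted p = 0.101).

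Of 18 transcription factors known to act on liver apolipoprotein genes, 6 rose and 5 fell at FR2vB, 9 rose and 4 fell at FR8vB, and 7 rose and 3 fell at FR20vB in FS animals (median 0.26), while 42.9%, 40.4% and 36.5% of all genes passed. CREB3L3, a membrane-bound factor of triglyceride metabolism, rose by 1.67 at FR8vB (SE 0.28, adjusted p = 5.98e-06, edgeR) and by 1.42 at FR20vB (SE 0.27, adjusted p = 4.28e-05). CEBPA, a factor of hepatocyte differentiation, rose by 1.28 at FR2vB (SE 0.25, adjusted p = 5.01e-05). FOXO1, an insulin-restrained factor of MTTP and APOC3, fell by 1.38, 1.24 and 1.47 at the 3 time points (adjusted p = 1.02e-06, 1.53e-05 and 1.79e-07). In CPF animals FOXO1 fell by 1.74 at FR2vB (SE 0.39, adjusted p = 0.00743) and by 1.96 at FR8vB (SE 0.43, adjusted p = 0.00280), and CREB3L3 rose by 2.46 at FR8vB (SE 0.52, adjusted p = 0.00229) and by 1.76 at FR20vB (SE 0.49, adjusted p = 0.0467). With 88 libraries CREB3L3 had an adjusted p of 0.0541 at FR20vB (edgeR), and 0 of the 18 passed there, beside 0.893% of all genes.

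**Figure D5:**
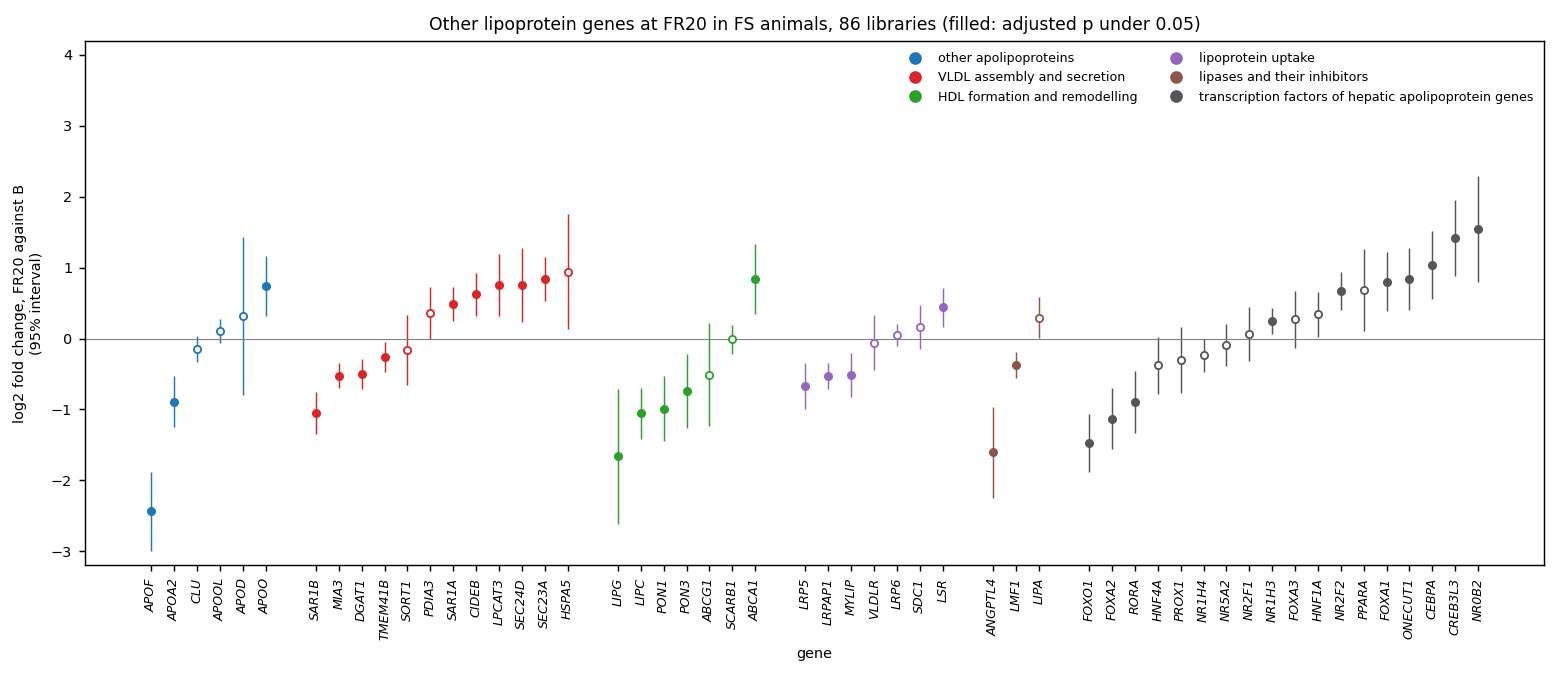
Log2 fold change at FR20vB in FS animals (y axis, with 95% intervals, 86 libraries) of the tested genes of 6 lists of lipoprotein metabolism (x axis), colored by list, with filled points for an adjusted p under 0.05. APOF (−2.44) and ANGPTL4 (−1.60) are among the lowest and CREB3L3 (1.42) among the highest filled points.

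Markers of the cells in a biopsy also changed, and the lists differed in direction and time point. Of 9 hepatocyte markers with a row, 0 rose and 6 fell at FR20vB in FS animals, and none was at 0 in any of the 86 libraries. Beside the marker counts given here, 42.9%, 40.4% and 36.5% of all genes passed at FR2vB, FR8vB and FR20vB in FS animals. ALB, albumin, fell by 2.23 (SE 0.26, adjusted p = 2.58e-09, edgeR) and TTR, transthyretin, by 1.99 (SE 0.29, adjusted p = 3.11e-07), and in CPF animals by 1.76 (SE 0.47, adjusted p = 0.0431) and 2.00 (SE 0.53, adjusted p = 0.0431). The summed level of the list ran from 91630.3 to 247942 CPM at Baseline in FS animals (median 218809). At FR20 it ran from 26444 to 169499 CPM (median 60198). ALB had the highest median of the list, at 141496 CPM at Baseline and 27892 at FR20. Not all of the list fell: the median of ASGR1 was 469 CPM at Baseline and 449 at FR20, and that of FGB 5982 and 8372. With 86 libraries 1 hepatocyte marker rose and 7 fell at FR2vB, and 1 rose and 6 fell at FR8vB. Of 3 neutrophil markers tested 3 rose at FR20vB in FS animals, with a summed median of 0.931 CPM at Baseline (0.0 to 12.8) and 4.09 at FR20 (0.227 to 48.9), while CSF3R was at 0 in 86 of the 86 libraries. Of 4 stellate cell and fibroblast markers 1 rose and 3 fell at FR2vB (median −0.75), 0 rose and 3 fell at FR8vB (median −0.78) and 0 passed at FR20vB, with a summed median of 942 CPM at Baseline (501 to 1902), 506 at FR2, 521 at FR8 and 917 at FR20 (379 to 2185). The adipocyte marker PLIN1 fell by 1.16 at FR2vB (SE 0.41, adjusted p = 0.0183, edgeR) and rose by 1.68 at FR20vB (SE 0.36, adjusted p = 0.000219), at medians of 1.73 CPM at Baseline and 4.61 at FR20. Of 4 T and NK cell markers 0 rose and 2 fell at each time point. Of 3 endothelial markers 1 rose at each (LYVE1 at FR2vB and FR8vB, KDR at FR20vB), and of 2 cholangiocyte markers 1 rose at FR2vB (EPCAM) and 1 fell at FR8vB and FR20vB (SOX9). Of 5 macrophage markers 1 rose and 4 fell at FR20vB, with CD68 at 0.41 (SE 0.14, adjusted p = 0.0157). Of 10 striated muscle markers 3 had a row and 2 were tested, and ACTA1 was at 0 in 27 of the 86 libraries. The summed median of the 2 in FS animals was 0.0949 CPM at Baseline and 0.0840 at FR20. Some FS libraries were higher, up to 35.1 CPM at Baseline, 83.1 at FR2, 55.6 at FR8 and 44.0 at FR20. In CPF animals the highest was 0.770 CPM.

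APOA4 and MTTP are also expressed by enterocytes. Of 5 enterocyte markers 2 had a row. SI, sucrase-isomaltase, was at 0 in 83 of the 86 libraries. VIL1, which other epithelia express too, rose by 1.51 at FR20vB in FS animals (SE 0.28, adjusted p = 2.20e-05, edgeR). VIL1 was at −0.05 at FR2vB (SE 0.29, adjusted p = 0.907, edgeR) and at 0.46 at FR8vB, where it did not pass. The part of cell composition in the changes of the 7 genes was not tested.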

How the data were processed

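Liver RNA was sequenced from 23 pigs at up to 4 time points. The submitters' processing notes name CASAVA 1.8.2, TopHat 1.5.0, SAMtools, HTSeq and edgeR 3.2.4 with the Sscrofa10.2 build, and the counting mode and strand setting are not given in the sources used here. The deposited values are raw counts per Ensembl gene that the authors made from reads. All 92 columns were matched to samples by name, and 88 libraries were used, of 6877117 to 16613261 counts. The closest libraries differed by a mean chi-square of 28.11 per gene, more than sampling noise gives. Symbols came from a gene name table (11804 identifiers) and, for 700 more such as APOA4, from name columns of the study's tables, and 114 of the 1688 identifiers named in both were named differently. The symbols' placement on chromosomes came from RefSeq (Sscrofa11.1), and no coordinates were used.

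Counts were tested with edgeR 4.0.16 (R 4.3.3; quasi-likelihood, trended dispersion, TMM) for genes with CPM summing to at least 10 over the libraries fitted, with Benjamini-Hochberg adjustment over all of them and a threshold of 0.05. Changes over time and their CPF minus FS differences were fitted with a term for each animal, which the titles name. Residuals of libraries of the same animal correlated at a median r of 0.206 (92 of 121 pairs over 0.1), and those of different animals at −0.0169. Levels between groups at 1 time point were fitted on that time point, deaths with a term for the fed state. SE is the log2 fold change over the square root of F, and 95% intervals are 1.96 SE on either side. Log2 CPM for correlations used a prior count of 2. Nothing beyond separate titles says how biopsies of an animal were handled, so the p-values measure the spread between these libraries. Alternatives used DESeq2 1.42.0, limma 3.58.1 with quality weights, other scaling and filters, the study's fold threshold, and fits without each animal. The fit of 86 libraries was chosen after seeing the data, and the genes and lists were chosen with earlier results of these data known. Of each list, the gene that rose and the gene that fell with the smallest adjusted p in each change from Baseline were named, with the defining markers ALB, TTR, ACTA1 and CD68 and the 3 genes with the highest Pearson's r with each member over 88 libraries. CD163 and FABP2, also listed, had no row, and VIL1, SI, CSF3R, PLIN1, LYVE1, KDR, EPCAM, SOX9 and the 3 genes over 86 libraries were named after their values were seen. Some listed genes are not reported here and were left out of the counts of their lists. No fits were made per transcript length, and no sequence was used. Scripts were tested on simulated data.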

Additional observations from a re-analysis of the deposited data

Results flagged for a closer look

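Among 28 groups of 4 to 10 libraries tested for a sample far from the others, 1 held one, and chance gives about 1 in 20 such groups. MTTP measured 770.388 CPM in the FR8 library of CPF4, against 299 to 346 CPM in the FR8 libraries of CPF2, CPF3 and CPF5. The same animal also had the highest CPF level of APOB at FR8, at 160.2 CPM.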

How the results depend on the processing

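Counts are of the 7 genes past the threshold. Without each animal in turn they ran, with 88 libraries, over 3 to 5, 2 to 5 and 2 to 6 at FR2vB, FR8vB and FR20vB in FS animals and 0 to 0, 0 to 2 and 0 to 2 in CPF animals, and with 86 over 5 to 6, 4 to 6 and 6 to 6, and 0 to 1, 0 to 4 and 0 to 5. They stayed at 0 for the CPF minus FS changes and the CPF against FS levels. In the order FR2vB, FR8vB, FR20vB in FS, the same in CPF, FR8vFR2 in FS, FR20vFR8 in FS and FR8vFR2 in CPF, the counts were 3, 2, 3, 0, 2, 2, 1, 1 and 0 with 88 libraries and 5, 5, 6, 1, 3, 5, 0, 2 and 1 with 86. Putting back the libraries without albumin (91 libraries), or all 92, gave 1, 0 and 1 in FS, 0 at FR8vB and FR20vB in CPF and 0 at FR8vFR2 and FR20vFR8 in FS. With the 3 added to the 86 it was 1, 1 and 2 in FS and 0 in the 3 CPF changes from Baseline, FR20vFR8 in FS and FR8vFR2 in CPF. The added fold threshold gave 1 (FR2vB) and 0 (FR8vB) in FS, 0 (FR8vB) and 1 (FR20vB) in CPF and 0 at FR8vFR2 and FR20vFR8 in FS with 88 libraries, and 1, 1 and 2 in FS, 0 (FR8vB) and 2 (FR20vB) in CPF and 0 at FR20vFR8 in FS and FR8vFR2 in CPF with 86.

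The animal is the pairing in the main design. With no replicate block 88 libraries gave 0 at FR8vB and FR20vB in CPF and at FR8vFR2 and FR20vFR8 in FS, and 86 gave 3 at FR2vB and FR8vB in FS, 0 at the 3 CPF changes from Baseline, 1 at FR20vFR8 in FS and 0 at FR8vFR2 in CPF. Of single-gene results 57 of 63 kept their side of the threshold without the block with 88 libraries and 50 of 63 with 86. The other 6 and 13 lost their call. With 88 libraries the 6 include FS changes from Baseline, since CPF animals held 2 calls at FR8vB and 2 at FR20vB.

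DESeq2 gave 1 at FR2vB in CPF, 2 at FR8vFR2 in FS, 1 at FR8vFR2 in CPF and 1 for CPF against FS at B with 88 libraries, and 2, 3 and 1 for the last 3 with 86. Limma gave 1 at FR2vB in CPF, 2 at FR8vFR2 and FR20vFR8 in FS and 1 at FR8vFR2 in CPF with 88, and 5 at FR8vFR2 in FS and 4 in CPF with 86. The likelihood ratio test gave 1 at FR8vFR2 in CPF. Library totals gave 1 at FR8vB and FR20vB in CPF and 0 at FR8vFR2 in FS, no filter gave 1 at FR8vB in CPF, and relative log expression scaling of the 86 libraries gave 0 at FR8vFR2 in CPF.

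The following values, none of which had passed, changed sign by more than 1 SE, all but 1 with the 3 libraries without albumin put back. APOB at FR8vB in FS was 0.11 (91 libraries), 0.088 (92) and 0.19 (86 and 3), and APOA1 at FR2vB in FS was 0.088 (86 and 3). The CPF minus FS change at FR2vB was −0.14 for APOA1, −0.025 for APOC3 and −0.34 for MTTP (86 and 3), and −0.039, −0.034 and −0.025 for APOM. At FR8vB it was −0.16 for MTTP (86 and 3), and −0.10 without CPF4. At FR20vB it was −0.24, −0.25 and −0.23 for APOE and −0.28 for MTTP (86 and 3). CPF against FS at B was 0.18 for APOC3 and 0.17 for APOM. The 3 libraries without albumin held 385464 to 465108 counts of ACTA1, the striated muscle marker, and 4 to 899 of albumin. The cause of the sign changes was not tested. Depth limits APOB most, with as few as 117 counts in a library.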
